A study of Homo sapiens with 27 samples.

Results

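The genes described are 10 neuronal filament and axon growth genes, PRPH, NEFL, NEFM, NEFH, INA, STMN2, DCX, TUBB3, GAP43 and CNTN2, out of the 44852 genes in the count table of a retinal differentiation series. The 10 were taken by gene symbol, and the list was chosen partly by the day 32 values of PRPH and CNTN2, which exceeded on LN523 those on LN521. The comparison of LN523 with LN521 at day 32 is therefore given for every member as a description without a test. All 10 had a row in the count and TPM tables.

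The study grew H1 cells, an established human embryonic stem cell line, on 3 recombinant laminin matrices and differentiated them toward photoreceptor progenitors. Bulk RNA was sequenced from 27 libraries, 3 for each of the 9 groups formed by LN523, LN323 or LN521 at day 2, day 22 or day 32; the sample titles number the same days 0, 20 and 30. At day 2 the cells had been plated on the matrix and not yet differentiated. After day 2 all groups received the same media, first with the casein kinase inhibitor CKI-7 and the TGF-beta receptor inhibitor SB431542 and later with BDNF, CNTF, retinoic acid and the gamma-secretase inhibitor DAPT, so the day 2 groups had received none of these agents and each comparison of day 22 with day 2 is also one with and without them. The sample labels list LN323 alone, LN521 with LN323 and LN523 with LN323, whereas the study's methods describe LN521 alone and LN523 or LN323 each mixed with LN521. The groups are called here by the isoform that sets them apart. Replicate numbers equal sequencing lanes, and the labels do not say that the 3 libraries of a group came from separate cultures, so p-values measure the spread between these libraries, which may be technical. All libraries come from a single cell line.

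Neurons fill their axons with intermediate filaments built from the neurofilament light, medium and heavy chains (NEFL, NEFM, NEFH), alpha-internexin (INA) and, in many peripheral and some central neurons, peripherin (PRPH). Growing axons also need microtubules, whose dynamics are set in part by stathmin-2 (STMN2) and doublecortin (DCX) and whose neuronal beta-tubulin is TUBB3. GAP43 is a membrane protein of the growth cone, and contactin-2 (CNTN2) is an adhesion molecule on young axons. In the retina the ganglion cells are the neurons with long axons, and they are known for high neurofilament, STMN2 and GAP43 expression.

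The members lie on 8 chromosomes of GRCh38. PRPH (ENSG00000135406) spans chr12:49295147-49298686 on the plus strand, CNTN2 (ENSG00000184144) chr1:205042937-205078289 on the plus strand, INA (ENSG00000148798) chr10:103277138-103290346 on the plus strand and GAP43 (ENSG00000172020) chr3:115623510-115721490 on the plus strand. Exons of PRPH are overlapped over 71.5% of their length by ENSG00000258334 on the opposite strand, which held 0 to 22 counts a library, and exons of INA over 13.9% by the opposite-strand gene ENSG00000076685, which held 689 to 3115. The strand setting of the counting is not given in the sources used here, so reads of overlapping opposite-strand genes cannot be told apart, and the overlap was 19.8% for NEFL, 26.4% for NEFM and 9.04% for NEFH. A readthrough gene on the same strand, ENSG00000198211, covers 21.3% of the TUBB3 exons, and TUBB3 values are uncertain for that reason.

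RefSeq promoters on GRCh38.p14 were matched for 6 of the 10 members, and 4 are shown: those of the 2 genes whose values served to choose the list, and those of INA and GAP43, a filament and a growth cone gene, beside them. Each run is the 250 bases before the annotated start, 5′ to 3′ on the gene's strand. Capitals mark matches, on either strand, to the 6 motifs searched, which were the E-box CAGCTG, a second E-box spelled CAGATG, the homeodomain core TAATTA, the TATA box spelled TATAAA, the GC box GGGCGG and the STAT motif TTCNNNGAA.
PRPH, chr12:49294897-49295146, plus strand: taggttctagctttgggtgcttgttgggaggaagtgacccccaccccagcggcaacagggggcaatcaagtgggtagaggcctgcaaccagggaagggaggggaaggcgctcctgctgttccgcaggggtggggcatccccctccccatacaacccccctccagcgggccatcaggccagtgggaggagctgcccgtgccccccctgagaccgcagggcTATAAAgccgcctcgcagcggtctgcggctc
CNTN2, chr1:205042699-205042948, plus strand: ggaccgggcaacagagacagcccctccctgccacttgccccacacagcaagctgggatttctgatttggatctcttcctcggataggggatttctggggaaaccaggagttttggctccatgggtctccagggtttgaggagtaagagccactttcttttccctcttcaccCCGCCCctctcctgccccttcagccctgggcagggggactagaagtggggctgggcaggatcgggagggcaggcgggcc
INA, chr10:103276888-103277137, plus strand: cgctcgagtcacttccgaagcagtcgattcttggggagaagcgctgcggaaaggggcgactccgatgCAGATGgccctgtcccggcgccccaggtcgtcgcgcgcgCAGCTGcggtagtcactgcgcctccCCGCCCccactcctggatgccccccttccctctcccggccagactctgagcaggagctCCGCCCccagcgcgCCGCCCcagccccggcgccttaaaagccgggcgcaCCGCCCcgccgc
GAP43, chr3:115623260-115623509, plus strand: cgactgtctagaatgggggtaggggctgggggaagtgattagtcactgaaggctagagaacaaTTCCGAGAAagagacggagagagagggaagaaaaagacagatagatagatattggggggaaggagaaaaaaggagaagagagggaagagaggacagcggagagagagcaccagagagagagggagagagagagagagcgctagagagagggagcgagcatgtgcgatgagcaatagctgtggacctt
PRPH held TATAAA at -31, which 10.7% of 35116 promoters of this length hold, and no other motif searched. The CNTN2 window shown held GGGCGG at -79 (42.6% of promoters), and a second CNTN2 window in the table, chr1:205042962-205043211, held none of the 6 motifs. GAP43 held TTCNNNGAA at -187 (6.57%). INA held CAGCTG at -144 (14% of promoters), CAGATG at -183 (12.2%) and 4 GGGCGG matches. Their GC content was 66.8%, 61.2%, 72.8% and 51.6% for PRPH, CNTN2, INA and GAP43 against a median of 58% over all promoters. The matches are descriptions of these windows only.

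Libraries held 25620624 to 47340990 counts (median 39862487). Values between libraries are CPM, counts scaled to library size after TMM normalisation, and levels of different genes are compared only as the deposited TPM, which are scaled for gene length as well. The pluripotency markers summed to 5856 to 10106 CPM at day 2 in the 9 libraries. Of 9 retinal progenitor markers 7 were called higher at day 22 than at day 2 on each matrix (11.5%, 11.8% and 10.8% of all genes on LN523, LN323 and LN521). The library labelled LN521 replicate 1 stood apart after day 2. At day 22 it held 73.8 CPM of POU5F1 and 10.9 CPM of NANOG, both pluripotency factors, against at most 2.26 and 0.304 CPM in the other 8 libraries, and at day 32 it held 14.7 CPM of POU5F1 against at most 2.44. Its 5 motor neuron markers summed to 25.4 CPM at day 22 and 18.1 CPM at day 32, against 1.37 to 4.05 and 1.27 to 5.22 CPM in the other 8 libraries of each day. SLC5A7, a choline transporter, gave 14.7 and 11.1 CPM of that, SLC18A3 8.3 and 5.06 CPM and CHAT 2.27 and 0.656 CPM. These genes made up nearly all of the day 22 sum. The other members of the list, MNX1 and LHX3, gave little of it, so the sum does not show motor neurons. Its amacrine and horizontal (226 CPM), ganglion cell (126 CPM) and photoreceptor (77 CPM) marker sums also exceeded the other libraries at day 22 (at most 122, 84.9 and 55.1 CPM). At day 32 those sums lay within the others' range. Its retinal progenitor, pigment epithelium, surface ectoderm and neural crest sums lay within range at day 22. The 10 members together gave 956 CPM in it at day 22 against 42.1 to 150 CPM in the other 8, and 952 CPM at day 32 against 217 to 763 CPM. Whether this library held other cells, and their part in the results below, was not tested. The called differences that rest on this library are given with and without it. In bulk RNA, fewer cells of a type and less RNA per cell cannot be told apart.

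PRPH was near zero at day 2 and rose on every matrix. The 9 day 2 libraries held 0.365, 0.0616 and 0 CPM on LN523, 0, 0.191 and 0.0608 CPM on LN323 and 0.334, 0.51 and 0.289 CPM on LN521 (replicates 1, 2 and 3), from 0 to 22 counts. At day 22 the values were 6.23, 9.11 and 13.3 CPM on LN523, 28.5, 5.01 and 19.5 CPM on LN323 and 3.81, 1.42 and 5.88 CPM on LN521. At day 32 they were 41.1, 53.2 and 24.5 CPM on LN523, 42.9, 50.7 and 21.1 CPM on LN323 and 13.8, 9.04 and 8.61 CPM on LN521. Every day 22 library was above every day 2 library (as for 15.3%, 16% and 15.8% of all genes on LN523, LN323 and LN521). At day 32 the LN521 libraries lay below all 6 others. Of all genes, 3.18% lay higher on LN523 and 3.15% on LN323 than on LN521 at day 32 without overlap. The day 32 order is a description, since the LN523 and LN521 values served to choose PRPH. The highest PRPH level on LN521, 13.8 CPM, came from the replicate 1 library, which was only 1.53 times the next LN521 value, so PRPH did not share the height of most other members there.

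From day 2 to day 22 the PRPH log2 fold change was 5.99 ± 0.65 (SE) on LN523 (adjusted p = 1.25e-10), 7.63 ± 0.71 on LN323 (adjusted p = 9.09e-13) and 3.26 ± 0.56 on LN521 (adjusted p = 8.77e-06), with p from the edgeR quasi-likelihood test, Benjamini-Hochberg adjusted over 44852 genes. A gene is called where this adjusted p was under 0.05. The rise to day 22 was larger on LN323 than on LN521 by 4.37 ± 0.88 on the log2 scale (adjusted p = 0.0416 in the same test), and of all genes 0.0201% passed that test. This call was lost with RLE scaling, with a stricter count filter and without any of 8 of the 12 single libraries left out in turn (LN323 replicates 1 and 3 and LN521 replicate 1 at either day, and LN521 replicates 2 and 3 of day 2), with values between 3.62 and 4.54 and adjusted p of 0.0707 to 0.254. Over all its alternatives the difference lay between 3.62 and 5.97, with adjusted p of 9.2e-04 to 0.56. The difference was 2.74 ± 0.84 between LN523 and LN521 (adjusted p = 0.601; 0.00446% of all genes called) and -1.63 ± 0.98 between LN523 and LN323 (adjusted p = 1; 0%), and neither was called. These differences rest on day 2 counts of 0 to 22.

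The light and medium neurofilament chains took another course: they were already present in the undifferentiated cells and fell at day 22 on LN523 and LN323, where every day 32 library lay above the day 22 libraries again. NEFL, the light chain, had 47.8, 23.7 and 48.5 CPM on LN523 at day 2, 2.29, 9.04 and 1.34 CPM at day 22 and 44, 76.5 and 29.6 CPM at day 32. On LN323 the NEFL libraries held 38.3, 47.9 and 23.2 CPM, then 2.51, 9.47 and 4.31 CPM, then 18.7, 27.5 and 22.7 CPM. On both matrices the day 22 libraries lay below all day 2 libraries (14.6% and 16.3% of all genes) and below all day 32 libraries (3.38% and 3.3%). On LN521 NEFL went from 28.5, 49 and 58.6 CPM at day 2 to 249, 42.3 and 2.97 CPM at day 22 and 193, 55.7 and 17.2 CPM at day 32, so the 3 replicates of a day spanned 84.1-fold at day 22, and only replicate 3 was low.

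NEFM, the medium chain, followed NEFL at lower levels. The NEFM gene (ENSG00000104722, chr8:24913758-24919098, plus strand) and the NEFL gene (ENSG00000277586, chr8:24950955-24956721, minus strand) are neighbours on chromosome 8. It ranged from 8.45 to 15.1 CPM over the 9 day 2 libraries, from 0.343 to 3.94 CPM on LN523 and LN323 at day 22 and from 4.42 to 12.4 CPM on those matrices at day 32, while the LN521 libraries held 136, 21.9 and 1.35 CPM at day 22 and 45, 14 and 3.05 CPM at day 32. NEFH, the heavy chain of mature axons, was highest at day 2 (11.8 to 28.1 CPM) and stayed between 3.66 and 18.3 CPM afterwards, with no return at day 32. INA, an early neuronal filament, held 18 to 28.4 CPM at day 2, 5.56 to 21.6 CPM at day 22 outside the LN521 replicate 1 library (50.1 CPM) and 11.8 to 35.1 CPM at day 32 outside it (71.6 CPM).

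**Figure D1:**
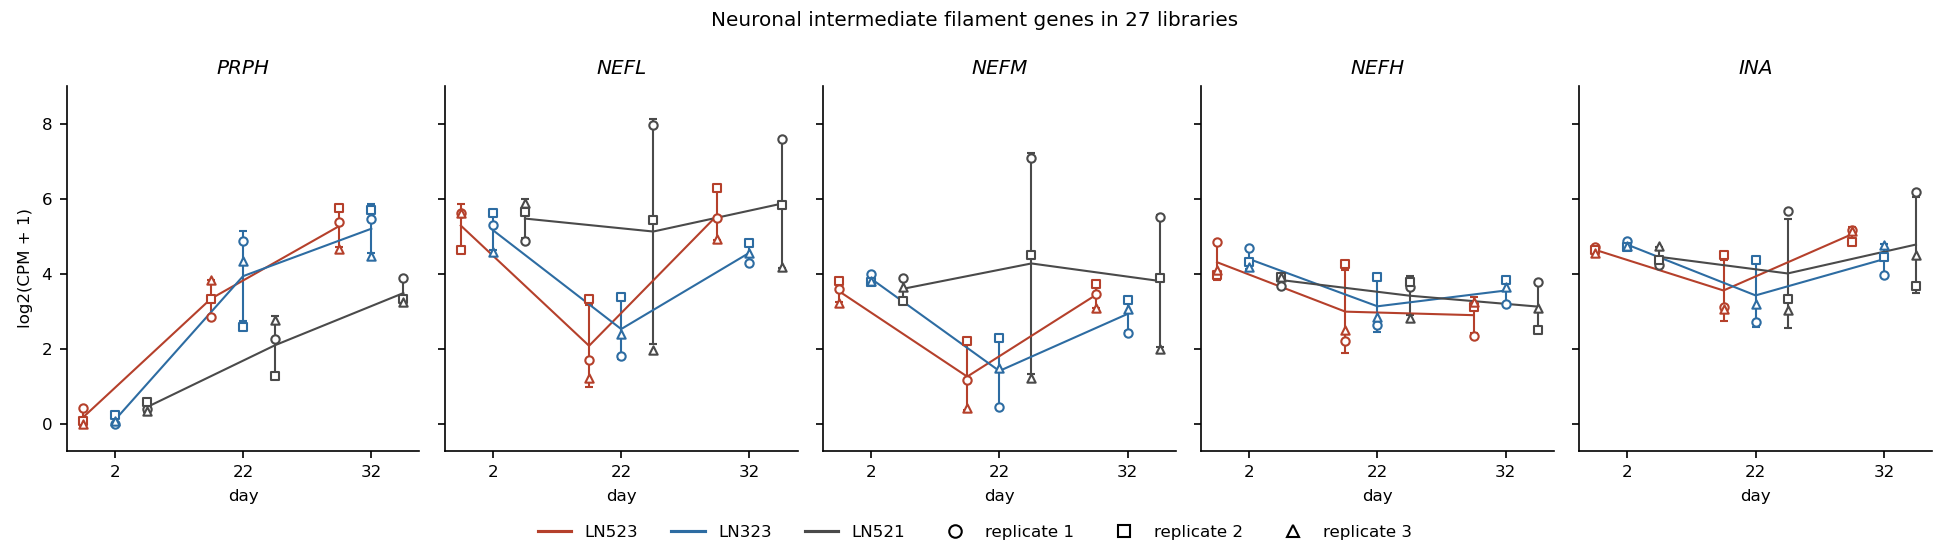
PRPH, NEFL, NEFM, NEFH and INA in every library as log2(CPM + 1) against day (days evenly spaced), with the mean and SD of 3 libraries on each matrix and a marker shape per replicate. PRPH climbs from near 0 on all matrices and is lowest on LN521, while NEFL and NEFM dip at day 22 on LN523 and LN323 and LN521 replicate 1 sits far above replicates 2 and 3.

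From day 2 to day 22 on LN523, 5 members were called: PRPH rose, and NEFL, NEFM, NEFH and GAP43 fell, where 11.5% of all genes were called higher and 10.2% lower. The log2 fold change was -3.51 ± 0.68 (SE) for NEFL (adjusted p = 5.09e-05), -2.79 ± 0.70 for NEFM (adjusted p = 0.00174), -1.30 ± 0.42 for NEFH (adjusted p = 0.0169) and -2.06 ± 0.37 for GAP43 (adjusted p = 1.91e-05, edgeR). The same 5 were called on LN323 in the same directions (11.8% of all genes higher, 10.9% lower), at -2.68 ± 0.64 for NEFL, -2.71 ± 0.69 for NEFM, -1.33 ± 0.41 for NEFH and -2.14 ± 0.38 for GAP43. The INA log2 fold change was -0.97 on LN523 (adjusted p = 0.152) and -1.22 on LN323 (adjusted p = 0.0516). The median of the 10 members was -0.88 on either matrix, against 0.02 over all genes tested. The NEFL, NEFM, GAP43 and PRPH calls held under all 11 alternatives on LN523 and on LN323, and the NEFH call was lost on each without replicate 1 of day 2, replicate 1 of day 22 or replicate 3 of day 22 (-0.74 to -0.90 on LN523 and -0.94 to -1.12 on LN323).

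On LN521 the same interval gave 4 calls, all higher (10.8% of all genes higher, 8.09% lower): PRPH, CNTN2 at 2.05 ± 0.64 (adjusted p = 0.0156), DCX at 2.02 ± 0.54 (adjusted p = 0.00397) and STMN2 at 1.99 ± 0.74 (adjusted p = 0.0496). Without the LN521 replicate 1 libraries of days 22 and 32 the values were -0.34 for CNTN2, 0.11 for DCX and -0.63 for STMN2, none of them called, while PRPH was at 3.37 (adjusted p = 1.16e-07). The count was again 4, but with other members: NEFL (-1.63, adjusted p = 0.0027), INA (-1.44, adjusted p = 0.00135) and GAP43 (-1.67, adjusted p = 2.31e-05) were called lower, as NEFL and GAP43 were on LN523 and LN323. No test of the difference of this change between LN521 and another matrix was called for NEFL (-4.16 for LN523 and -3.32 for LN323), NEFM (-4.57 and -4.49), CNTN2, STMN2, DCX or GAP43, and the adjusted p nearest the threshold was 0.0623, for NEFM between LN323 and LN521. With LN521 replicate 1 left out at both days these values were -1.98 and -1.11 for NEFL and -2.12 and -2.20 for NEFM, again not called.

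Per length, PRPH went from the rarest of the 5 filament messages to a larger part of them on LN523 and LN323. It was still the rarest in LN521 replicates 1 and 2 at day 22 and in LN521 replicate 1 at day 32. It made up 0% to 0.502% of their summed TPM at day 2. At day 22 its share was 25.6%, 12.7% and 43.8% on LN523, 63.4%, 8.16% and 44.4% on LN323 and 0.81%, 1.53% and 21.8% on LN521. At day 32 it was 27.9%, 28.2% and 20.7% on LN523, 44.9%, 38.9% and 21.2% on LN323 and 3.8%, 9.01% and 12.9% on LN521, with no overlap between LN521 and the other matrices. This separation is a description only, since the day 32 values of PRPH on LN523 and LN521 served to choose it. NEFL was the largest share in LN521 replicates 1 and 2 at both days (45.9% to 55.9%), and INA in LN521 replicate 3 (36% and 43.6%). The summed TPM itself was 457 in LN521 replicate 1 at day 22 and 23.5 to 84.9 in the other 8 day 22 libraries, so a low share of PRPH there went with high NEFL and NEFM and not with a lower PRPH level than in replicate 2.

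**Figure D2:**
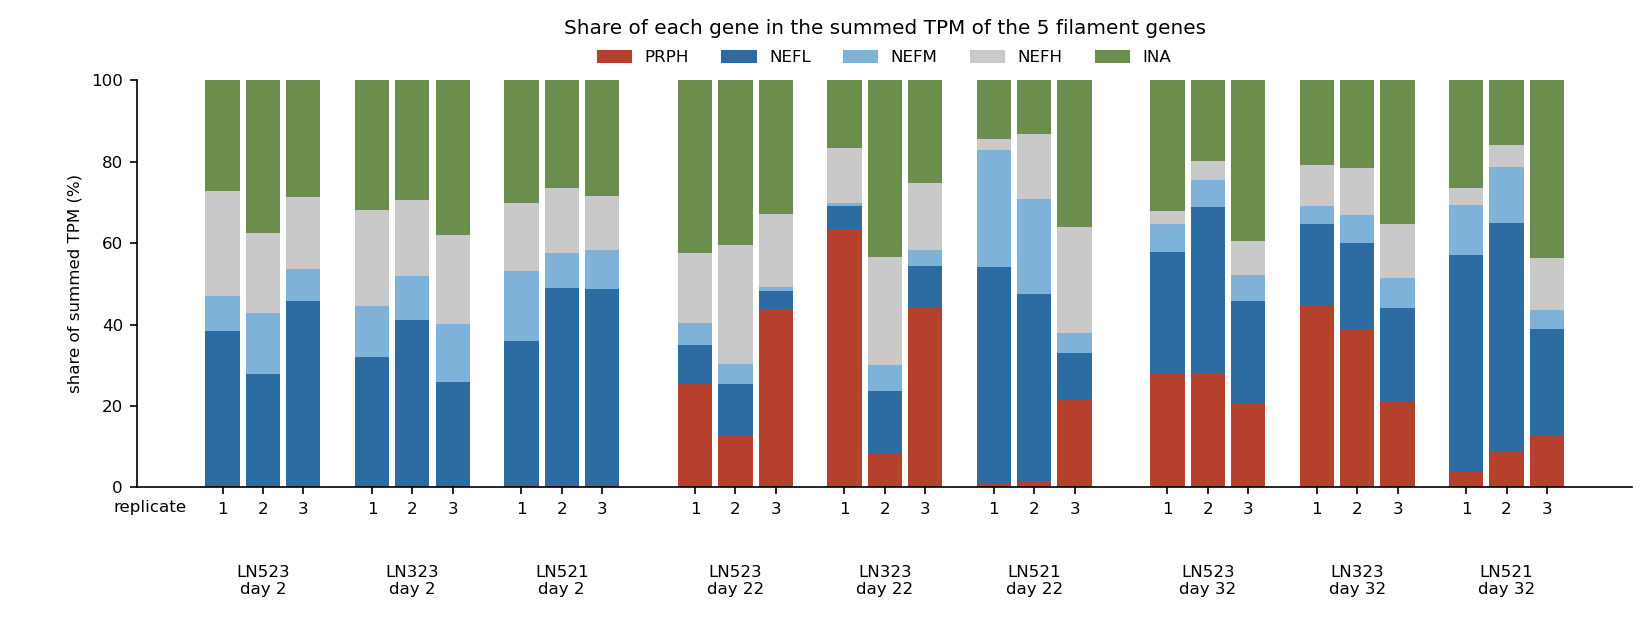
Share of PRPH, NEFL, NEFM, NEFH and INA in their summed TPM (percent), one stacked bar per library, grouped by matrix and day. PRPH is at most 0.502% at day 2 and at day 32 takes 20.7% to 44.9% on LN523 and LN323 against 3.8% to 12.9% on LN521. The day 32 values of PRPH on LN523 and LN521 served to choose it.

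STMN2, a stathmin that regulates microtubules in growing and regenerating axons, was the most abundant member per length at day 32, with a mean of 248 ± 105 TPM (SD, n = 3) on LN523, 115 ± 48.8 TPM on LN323 and 249 ± 269 TPM on LN521. Its CPM on LN523 was 8.44, 1.72 and 18.4 at day 2, 8.24, 15.4 and 7.06 at day 22 and 183, 186 and 75.3 at day 32. On LN323 it was 2.19, 13.2 and 1.09 at day 2, 9.36, 19.6 and 10.4 at day 22 and 50.6, 96.9 and 50.1 at day 32. On LN521 it was 6.07, 14.2 and 17.6 at day 2, 180, 9.74 and 7.58 at day 22 and 306, 56.8 and 54 at day 32. STMN2 thus stayed at or under 19.6 CPM to day 22 outside the LN521 replicate 1 library, and every day 32 library on LN523 and LN323 exceeded every earlier library of its matrix.

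DCX, a microtubule protein of migrating and young neurons, moved with STMN2. It held 6.71 to 21.5 CPM at day 2, 2.96 to 27.8 CPM at day 22 outside the LN521 replicate 1 library, which held 145 CPM, and 27.7 to 91.3 CPM at day 32 outside the same replicate at 124 CPM. TUBB3, a beta-tubulin used as a general neuronal marker, had the narrowest range of the 10. It lay between 1.85 and 7.85 CPM in all 27 libraries, on 63 to 323 counts, and was called in none of the 14 tested comparisons of matrices or days and in none of the 5 tests of a difference between matrices.

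GAP43 was the most abundant member per length before differentiation, at 64.9 ± 10.1 TPM (SD, n = 3) on LN523, 66 ± 7.68 TPM on LN323 and 67.1 ± 7.82 TPM on LN521 at day 2. In CPM its libraries held 38.4, 37 and 46 on LN523 at day 2, 6.74, 11.7 and 10.7 at day 22 and 53.7, 45.9 and 64.4 at day 32. On LN323 they held 45.3, 45 and 39, then 4.64, 15.3 and 9.19, then 25, 34.4 and 44.2. On LN521 they held 33.6, 35.9 and 33.7, then 38.6, 16.9 and 6.37, then 51.3, 22.4 and 21.7. The replicates of day 2 were close on each matrix, the dip at day 22 was present in 8 of 9 libraries, and LN521 replicate 1 was the exception.

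CNTN2 was low at day 2 and day 22 and high at day 32. Its libraries held 11, 10.9 and 8.84 CPM on LN523 at day 2, 1.2, 18.2 and 7.23 CPM at day 22 and 303, 234 and 132 CPM at day 32. On LN323 the values were 18.1, 10.9 and 13.6 CPM, then 3.27, 26 and 25.3 CPM, then 115, 99.7 and 67.8 CPM. On LN521 they were 14.1, 10.2 and 5.47 CPM, then 136, 14.4 and 2.8 CPM, then 126, 30.5 and 39.9 CPM. The 3 LN523 libraries of day 32 lay above all 24 others except that the lowest of them, 132 CPM, was below the LN521 replicate 1 library of day 22 (136 CPM). By group means CNTN2 fell in the order LN523, LN323 and LN521 at day 32, then LN521 and LN323 at day 22, and only the first step separated neighbours beyond their ranges. PRPH had the order LN523 day 32, LN323 day 32, LN323 day 22, LN521 day 32, LN523 day 22, LN521 day 22 and then the day 2 groups, and the ranges of neighbours overlapped at every step except below LN523 day 22 and below LN521 day 22.

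**Figure D3:**
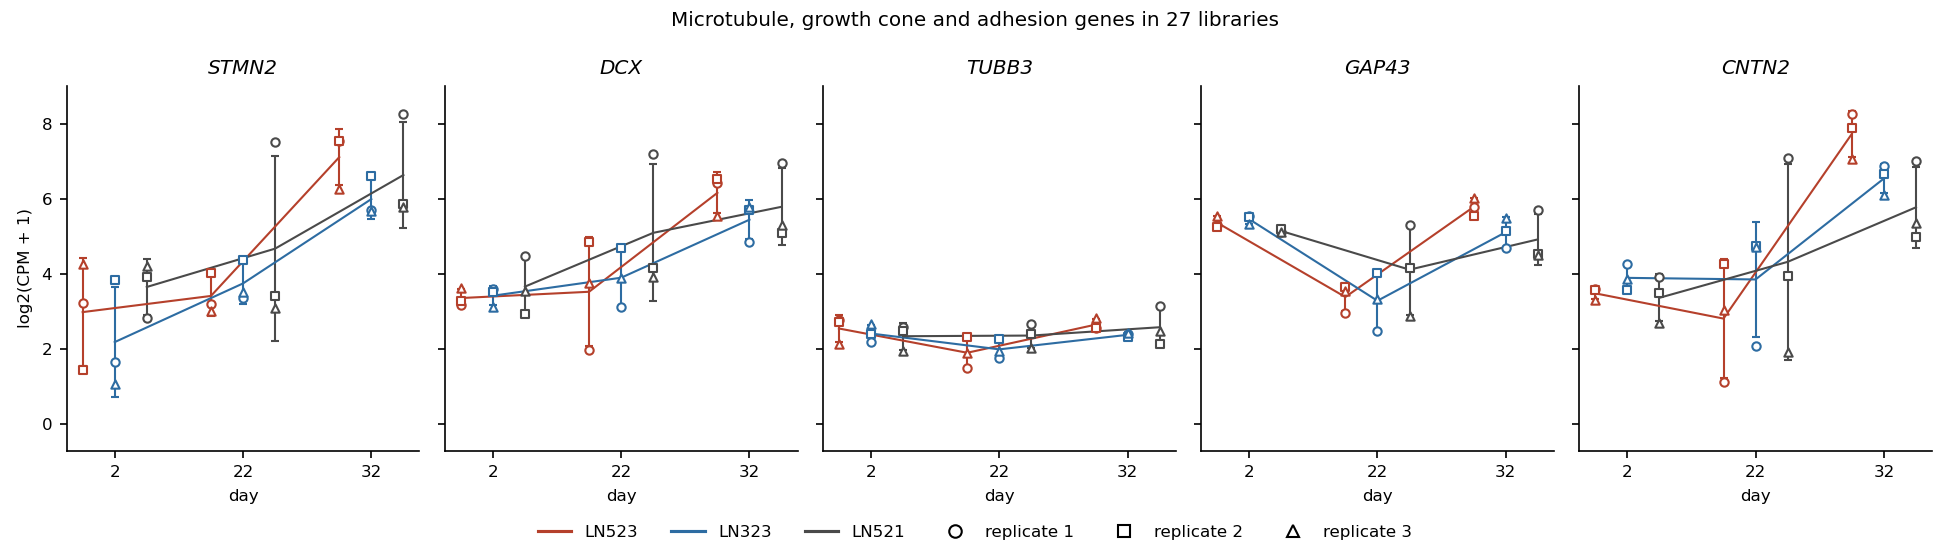
STMN2, DCX, TUBB3, GAP43 and CNTN2 in every library as log2(CPM + 1) against day (days evenly spaced), with the mean and SD of 3 libraries on each matrix and a marker shape per replicate. On LN523 and LN323 the means of STMN2, DCX and CNTN2 are highest at day 32, GAP43 dips at day 22 and TUBB3 stays between 1.85 and 7.85 CPM.

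From day 22 to day 32 on LN523, 4 of the 8 members other than PRPH and CNTN2 were called, all higher, where 0.343% of all genes were called higher and 0.0379% lower. On the log2 scale STMN2 rose by 3.80 ± 0.73 (SE; adjusted p = 0.00293), NEFL by 3.64 ± 0.67 (adjusted p = 0.0017), GAP43 by 2.49 ± 0.38 (adjusted p = 0.00011) and DCX by 2.25 ± 0.54 (adjusted p = 0.0377, edgeR). CNTN2 at 4.45 ± 0.69 and PRPH at 2.02 ± 0.49 are descriptions with no test, because the same LN523 day 32 libraries served to choose them. NEFM (2.67, adjusted p = 0.0773), INA (1.41), TUBB3 (0.91) and NEFH (-0.26) were not called. The day 32 libraries of NEFM, INA and TUBB3 lay above all day 22 libraries as well, as did those of 3.38% of all genes. The median of the 8 was 2.37 against 0.0023 over all genes tested. With a filter on low counts (filterByExpr) none of the 4 stayed called, and the DCX call was also lost with RLE scaling and with DESeq2. Without replicate 1 of LN523 at day 22, 2 of the 8 were called, NEFL and GAP43, and DCX (1.65) and STMN2 (3.52) were not. DCX also lost its call without LN523 replicate 3 of day 22 (2.26) or replicate 1 or 2 of day 32 (2.27 and 2.00).

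On LN323 only GAP43 was called from day 22 to day 32, at 1.83 ± 0.37 (adjusted p = 0.0305; 0.0357% of all genes higher), and that call was lost in 6 of 11 alternatives, among them those without LN323 replicate 1 (1.45) or 3 (1.84) of day 22 or replicate 2 (1.86) or 3 (1.54) of day 32. STMN2 (2.32), NEFL (2.13), CNTN2 (2.12), NEFM (1.78) and DCX (1.55) had positive values there with no overlap between the days, as had 3.3% of all genes. Their adjusted p ran from 0.47 to 1. On LN521 none of the 8 members other than PRPH and CNTN2 was called by edgeR or by DESeq2 (0.196% of all genes higher and 0.0713% lower by edgeR), with 0 at an unadjusted p under 0.05 in edgeR. Leaving out the LN521 replicate 1 library of day 22 gave 5 called of the 8 on LN521 (NEFL, INA, STMN2, DCX and GAP43), and leaving out that replicate at both days gave 1, STMN2 (2.71, adjusted p = 0.00085). PRPH (1.48) and CNTN2 (0.61) on LN521 are descriptions, since the LN521 day 32 libraries served to choose them. The difference in this change between LN523 and LN323 was called for none of the 10 (CNTN2 2.33 ± 0.86, as a description) and for 0% of all genes, so a member called on LN523 and not on LN323 was not shown to differ between them.

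**Figure D4:**
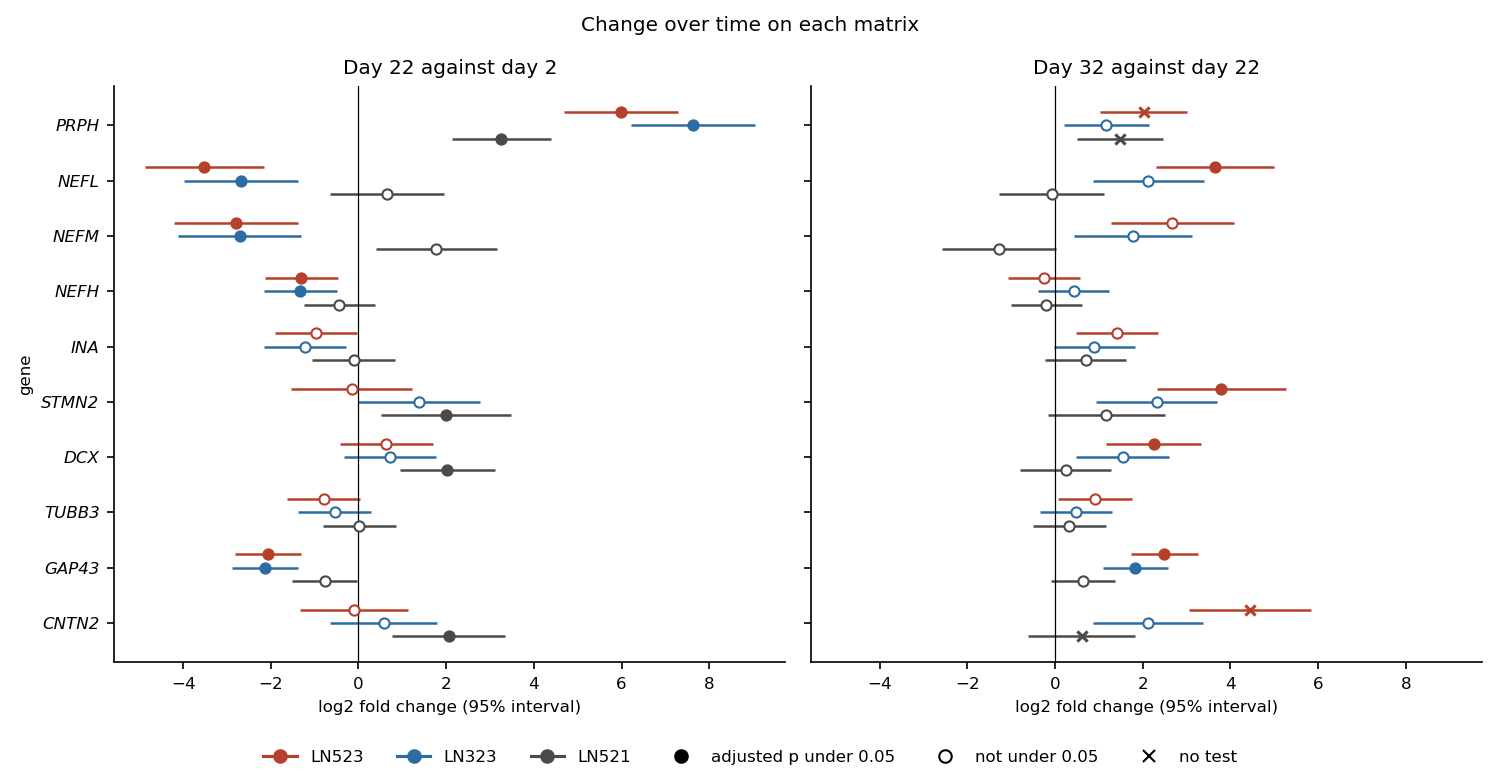
Log2 fold change of each member with its 95% interval, day 22 against day 2 (left) and day 32 against day 22 (right), on LN523, LN323 and LN521; filled points had an adjusted p under 0.05, and crosses mark values given with no test. On the left NEFL, NEFM, NEFH and GAP43 lie below 0 on LN523 and LN323 while PRPH lies above it on all matrices, and on the right most points lie above 0.

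Before differentiation STMN2 was the only member called between matrices. Against LN521 at day 2 none of the 10 was called on LN523 (0.624% of all genes called), and none reached an unadjusted p under 0.05. Between LN523 and LN323 none was called either (0.233% of all genes), with 1 member, STMN2, at an unadjusted p under 0.05 (1.12, adjusted p = 0.34). STMN2 differed between LN323 and LN521, lower on LN323, at -1.41 ± 0.32 on the log2 scale (edgeR, adjusted p = 0.00124; 2.5% of all genes called, 1.37% lower), although its libraries overlapped. That call was lost with a stricter filter, with DESeq2, in the fit on all 27 libraries and without LN323 replicate 1 (-1.03) or 3 (-0.50). In the same comparison PRPH (-2.30) lay lower on LN323, and NEFH (0.47) and GAP43 (0.22) higher, with no overlap of the libraries. None of these was called, and 8.59% of all genes lay lower and 6.1% higher without overlap.

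At day 22 PRPH was higher and NEFL and NEFM were lower on LN523 and LN323 than on LN521, and NEFH was not called (-0.52 and -0.39). PRPH differed by 1.64 ± 0.33 between LN523 and LN521 (adjusted p = 0.00174), with every LN523 library above every LN521 library (3.24% of all genes), and by 2.23 ± 0.33 between LN323 and LN521 (adjusted p = 2.03e-06), where LN323 replicate 2 at 5.01 CPM lay below LN521 replicate 3 at 5.88 CPM. The NEFL log2 fold change was -3.99 ± 0.47 on LN523 and -3.17 ± 0.49 on LN323, and that of NEFM was -4.38 ± 0.53 and -3.44 ± 0.57. The libraries of both genes overlapped in both comparisons. LN521 replicate 3 held 2.97 CPM of NEFL and 1.35 CPM of NEFM. It lay below LN523 replicate 2 (9.04 and 3.62 CPM) and LN323 replicate 2 (9.47 and 3.94 CPM). STMN2 (-1.76) and DCX (-1.92) were also called on LN523, and DCX (-1.78) on LN323. In all, 1 member was called higher and 4 lower on LN523 (0.179% and 0.394% of all genes), and 1 higher and 3 lower on LN323 (0.306% and 0.311%). The 2 comparisons share the LN521 libraries. Without LN521 replicate 1 the PRPH values were 1.59 (adjusted p = 4.79e-05) on LN523 and 2.17 (adjusted p = 7.58e-09) on LN323. NEFL then stood at -1.69 (adjusted p = 4.65e-05) and -0.98 (adjusted p = 0.0982), NEFM at -1.88 (adjusted p = 0.00233) and -1.44 (adjusted p = 0.0232), and DCX at 0.06 and 0.46, not called, so the size of the neurofilament differences rested on that library and the sign of DCX and of STMN2 (0.32 on LN523) turned without it.

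The called differences at day 22 depended on other libraries and on the model as well. PRPH lost its call on LN523 without replicate 2 (0.89) or 3 (1.77) of that matrix and on LN323 without replicate 1 (1.53) or 3 (2.38). Without LN523 replicate 3 none of the 5 was called against LN521, and NEFL was at -4.05 (adjusted p = 0.0609). Without LN323 replicate 1 or 3 none of the 4 was called there, and NEFL was at -1.66 and -4.19. In a fit without the lane block, and in a fit with the stricter count filter, no member was called in either comparison with LN521. Between LN523 and LN323 at day 22 none of the 10 was called (0.013% of all genes), and the values ran from -1.20 for CNTN2 to 0.07 for INA.

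At day 32, where the comparison of LN523 with LN521 chose PRPH and CNTN2, their log2 fold changes were 1.82 ± 0.26 and 1.88 ± 0.26 and every LN523 library was above every LN521 library (3.18% of all genes; 0.0609% were called in this comparison). The values just inside the choice therefore belong to these 2, and the next were GAP43 at 0.78 ± 0.29, STMN2 at 0.27 ± 0.36 and DCX at 0.24 ± 0.35, whose libraries overlapped. NEFM (-0.72), NEFL (-0.54), NEFH (-0.36), INA (0.10) and TUBB3 (0.04) lay on either side of 0. Without LN521 replicate 1 the GAP43 value was 1.39, STMN2 1.26, DCX 1.10, INA 1.08, NEFL 0.64, NEFM 0.60, TUBB3 0.44 and NEFH 0.35, and PRPH and CNTN2 ranged over the left-out libraries from 1.504 to 2.067 and from 1.45 to 2.35.

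PRPH was also above LN521 on LN323 at day 32, by 1.77 ± 0.26 with no overlap of the libraries (3.15% of all genes), and this value (1.44 to 2.01 over the left-out libraries) is given without a p since the LN521 day 32 libraries served in the choice of PRPH (0.104% of all genes were called higher and 0.117% in all). None of the 8 members other than PRPH and CNTN2 was called there, and NEFL stood at -1.49 (adjusted p = 0.384) and CNTN2 at 0.71. Without LN521 replicate 1 NEFL stood at -0.34 (adjusted p = 0.351), and NEFH (1.12, adjusted p = 0.00347) and GAP43 (0.72, adjusted p = 0.00076) were called. Without LN521 replicate 3, NEFL alone of the 8 was called. Between LN523 and LN323 none of those 8 was called at day 32 (0% of all genes), 747 of 39377 genes having an unadjusted p under 0.05 and 3 of the 8 among them. CNTN2 was at 1.17 ± 0.25, a description since its LN523 day 32 values served in the choice, and CNTN2, NEFL, INA, TUBB3 and GAP43 had no overlap between the 2 groups, as had 2.37% of all genes in that direction. In a fit on these 2 groups alone 6 of the 8 were called, and DESeq2 called 0.

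Across the 18 libraries of days 22 and 32, PRPH varied apart from the other members. Its Pearson correlation with each of the other 9, on log2(CPM + 1), lay between -0.19 and 0.49, and between -0.38 and 0.11 after the group means were removed. The 8 members other than PRPH and NEFH had correlations of 0.66 to 0.96 among themselves over 28 pairs, and 0.62 to 0.99 within groups. NEFH had 0.23 to 0.55 with those 8, and 0.44 to 0.84 within groups. In the 16 libraries left without LN521 replicate 1, PRPH had -0.14 to 0.65 with the other 9 (within groups -0.75 to -0.095), NEFH 0.076 to 0.48 with the 8 (0.50 to 0.88) and the 8 among themselves 0.60 to 0.95 (0.27 to 0.97). The points share libraries, lanes and the replicate 1 library of LN521, so these are descriptions.

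**Figure D5:**
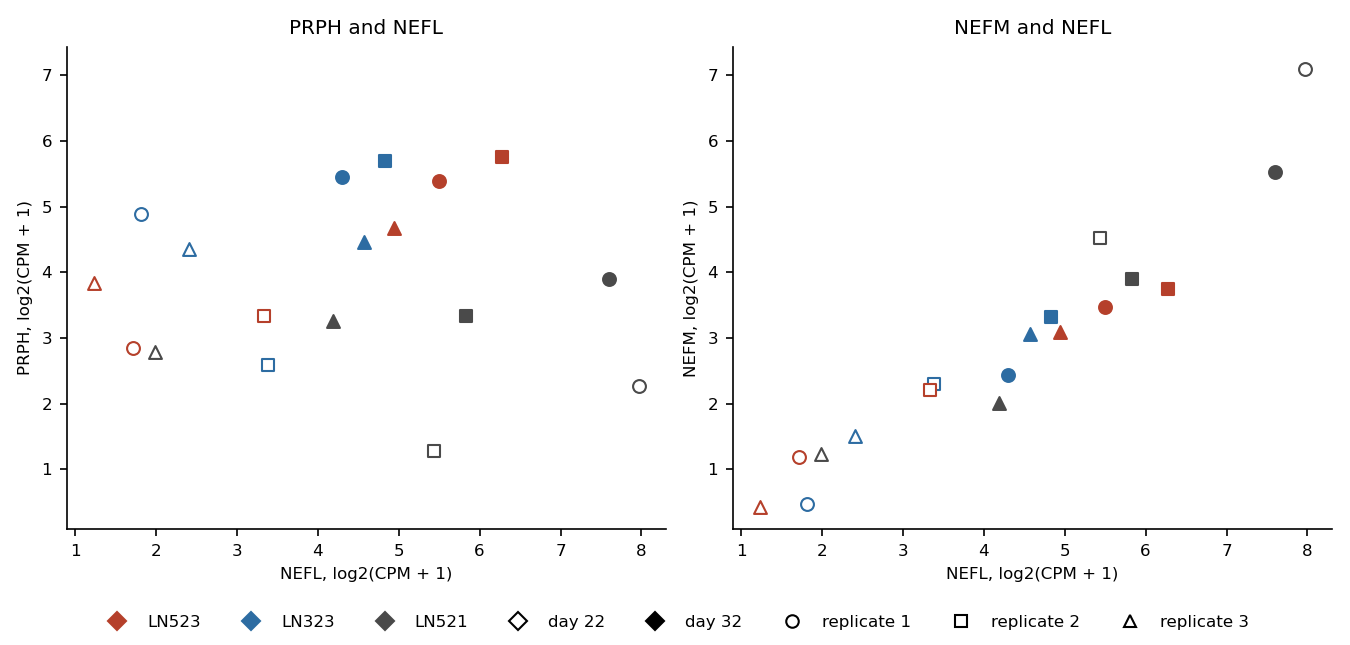
PRPH (left) and NEFM (right) against NEFL, each as log2(CPM + 1), in the 18 libraries of days 22 (open) and 32 (filled), coloured by matrix with a shape per replicate. NEFM rises with NEFL across all matrices. LN521 replicate 1, highest in NEFL at both days, held 3.81 CPM of PRPH at day 22 and 13.8 CPM at day 32.

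The genes most like PRPH over these 18 libraries, of 15344 with a mean of at least 1 CPM, were STAT3 (r = 0.93), a signalling transcription factor of cytokine receptors, TLCD2 (r = 0.92) and LSAMP (r = 0.90), a neuronal adhesion molecule. Those most like CNTN2 were POU2F2-AS2 (r = 0.95), ONECUT2 (r = 0.94), a transcription factor of horizontal and ganglion cells, and XKR7 (r = 0.94). For the mean of the 10 standardised members they were ONECUT2 (r = 0.98), OLFM1 (r = 0.97) and the neuronal RNA-binding protein gene ELAVL4 (r = 0.97). Without the 2 libraries farthest from the median the 9 correlations were 0.89 to 0.97.

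Of the 19 microtubule and stathmin partners, 7 were called higher and 8 lower on LN523 from day 2 to day 22 (11.5% and 10.2% of all genes). On LN323 the counts were 7 and 8 (11.8% and 10.9%), so this list had no common direction (median -0.33 and -0.46, against 0.02 over all genes). DCLK2, a doublecortin-like kinase, rose by 6.42 on LN523, MAP2, a dendritic microtubule protein, by 3.06, while the axonal kinesin KIF5A changed by -3.43 and the growth cone protein DPYSL3 by -3.68. From day 22 to day 32 on LN523, 3 of the 19 were called higher (0.343% of all genes). STMN4 rose from 1.41, 1.19 and 0.286 CPM to 18.6, 25.3 and 7.14 CPM, KIF5A by 2.17 and the tubulin TUBB2B by 1.04. KIF5A thus fell and then rose, as NEFL did.

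Of the 16 growth cone and adhesion partners, 9 were called higher and 5 lower on LN523 from day 2 to day 22 (11.5% and 10.2% of all genes). The counts were 9 and 4 on LN323 (11.8% and 10.9%) and 9 and 2 on LN521 (10.8% and 8.09%). Other contactins rose far earlier than CNTN2: CNTN5 went from 0.313, 0.554 and 0.54 CPM at day 2 to 142, 107 and 300 CPM at day 22 on LN523 (8.49), CNTN3 rose by 6.51 and CNTN4 by 4.48, where CNTN2 stood at -0.10 (adjusted p = 1). From day 22 to day 32 on LN523, 2 of the 16 were called higher (0.343% of all genes), the axonal adhesion gene NFASC by 2.47 and NCAM1 by 1.15.

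Of the 15 neuronal regulators, 3 were called higher and 3 lower on LN523 from day 2 to day 22 (11.5% and 10.2% of all genes). From day 22 to day 32, 7 were called higher there (0.343% of all genes; median of the list 1.41). The 4 with the highest values were MYT1L, ELAVL4 (4.53), ELAVL3 (4.52) and NHLH1 (4.21), all neuronal transcription or RNA-binding factors. MYT1L had 0 counts in all 3 LN523 libraries of day 22 and 64 over those of day 32, at least 20.2-fold higher against a floor of 3 counts over the group, and the list's median is the same with this bound. REST, a repressor of neuronal genes, was called in no comparison, with log2 fold changes of -0.15 to 0.21 in the 6 time comparisons. None of the microtubule, growth cone or regulator genes was called from day 22 to day 32 on LN323 or LN521 (0.0424% and 0.268% of all genes).

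Among other intermediate filament genes on LN523 from day 2 to day 22, VIM, the filament of progenitors and glia, rose by 2.88 while NES, of neural progenitors, fell by 1.35. At day 22 the replicates low in NEFL were high in VIM: LN323 replicate 1 held 2501 CPM of VIM and 2.51 of NEFL, and replicate 2 held 647 and 9.47. DES, a muscle filament closely related to PRPH in sequence family, was higher on LN323 than on LN521 at day 22 (1.86) and was the only gene of the 4 partner lists with a called difference in the rise to day 22 between those matrices (3.76).

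Only some markers of other cell types rose with the members. From day 22 to day 32 on LN523, where 0.343% of all genes were called higher, 2 of 10 retinal ganglion cell markers were (POU4F2 by 5.44 and ATOH7 by 4.96). So were 5 of 9 photoreceptor markers and 2 of 9 amacrine and horizontal cell markers. Among motor neuron markers the count was 0 of 5, and among the measured neural crest and peripheral neuron markers 0 of 8. On LN523 the summed ganglion cell markers were 175, 284 and 140 CPM at day 2, 38.1, 84.9 and 31.2 CPM at day 22 and 308, 217 and 157 CPM at day 32. The day 32 sums thus overlapped those of the undifferentiated cells. On LN521 the sums were 174, 181 and 177 CPM at day 2, 126, 63.1 and 34.1 CPM at day 22 and 228, 74.7 and 95.8 CPM at day 32. There the replicate 1 library was highest at day 22 and day 32, as for NEFL. The peripheral neuron marker TLX3 was at 5.04 CPM in LN521 replicate 1 at day 22 and reached at most 0.521 CPM in the other libraries of that day. The summed neural crest and peripheral neuron markers ranged from 30 to 93.3 CPM at day 22 and from 37.4 to 104 CPM at day 32 and were highest in LN523 replicate 2 at both days (93.3 and 104 CPM), where PRPH was 9.11 and 53.2 CPM. LN323 replicate 2 at day 22 had nearly the same sum (93 CPM) with PRPH at 5.01 CPM, the lowest of its group, and LN521 replicate 2 at day 32 had 90.7 CPM with PRPH at 9.04 CPM. Their part in the PRPH and CNTN2 levels was not tested.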

How the data were processed

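Total RNA from 27 libraries was sequenced by the authors as stranded 150 bp read pairs after ribosomal RNA depletion, and per the study's methods aligned to GRCh38 with STAR 2.5.2b and counted per gene with featureCounts 1.5.1. The deposited values are rounded read counts per gene, with ribosomal RNA and mitochondrial genes removed by the authors, and a table of TPM that the authors normalised for gene length and depth. Of the nonzero counts 68.8% were even, as when both mates are counted, so counting error is larger than the counts alone give. Read depth sets the precision of low values such as PRPH at day 2. Libraries of a group differed beyond sampling noise (mean chi-square a gene of 14.7 to 236), so each counted as 1 replicate.

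Counts were tested in R 4.3.3 with edgeR 4.0.16 (TMM, glmQLFit and glmQLFTest, genes with a summed count over 1), blocked on sequencing lane, a covariate of the study's own model. Matrices were compared in a fit of the 9 libraries of a day, and days in a fit of all 27. Gene names came from GENCODE release 44 (43052 of 44852 genes). P-values were adjusted by Benjamini-Hochberg over all genes tested, with a threshold of 0.05. The lane is stated in the labels and equals the replicate number; the mean correlation of same-lane deviations was 0.62 and 0.71 for LN523 with LN323 at days 22 and 32, -0.40 at day 2 and 0.013 to 0.19 for the other pairs of matrices at days 22 and 32. Alternatives were no block, RLE scaling, edgeR's filterByExpr, no filter, DESeq2 1.42.0, other sets of libraries and each library left out in turn. The test was checked on simulated data. The members and the partner and marker lists were chosen with earlier results of these data known. Partner genes are named where called, up to 4 a list by size of the log2 fold change, and the 3 genes most like a member by Pearson correlation of log2(CPM + 1). SOX10 was not analysed here, and some marker genes are not reported here.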

Additional observations from a re-analysis of the deposited data

Results flagged for a closer look

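The rise of PRPH from day 2 to day 22 differed between matrices by a test of the difference itself: the log2 fold change was larger on LN323 than on LN521 by 4.37 ± 0.88 (SE; adjusted p = 0.0416, edgeR quasi-likelihood, Benjamini-Hochberg adjusted), and PRPH was higher at day 22 in 3 of 3 libraries of each matrix. The value rests on 0 to 7 counts a library on LN323 and 11 to 22 counts on LN521 at day 2. Without LN521 replicate 1 at days 22 and 32, a setting chosen after seeing the data, it was 4.37 (adjusted p = 0.00546). The call was lost in 10 of 17 alternatives, with RLE scaling, with the filterByExpr filter and without any of 8 single libraries, among them LN521 replicate 1 of day 22 alone, and over all alternatives the value ran from 3.62 to 5.97 and the adjusted p from 9.2e-04 to 0.56.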

How the results depend on the processing

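The number of members called kept within 1.5 times of the main count under all alternatives for day 22 against day 2 on LN523 and on LN323 (5 each, 4 to 6 without single libraries). It stayed at 0 under all alternatives run for LN523 against LN521 at day 2 and for 4 of the 5 differences between matrices in a change over time, and elsewhere it moved. The filterByExpr filter gave 0 members for LN323 against LN521 at days 2 and 32 and for LN523 and LN323 against LN521 at day 22. It also gave 0 for day 32 against day 22 on LN523 and on LN323 and for the difference in the PRPH rise. For day 22 against day 2 on LN521 it gave 2. DESeq2 gave 0 for LN323 against LN521 at day 2, 1 for LN523 and 1 for LN323 against LN521 at day 22, 1 for LN523 against LN323 at day 32, 0 for day 32 against day 22 on LN323 and 2 for day 22 against day 2 on LN521. RLE scaling gave 3 for LN523 against LN521 at day 22 and 0 for the difference in the PRPH rise, and no filter gave 3 for LN523 against LN521 at day 22. The fit on all 27 libraries gave 0 for LN323 against LN521 at day 2 and at day 32 and 2 for each comparison with LN521 at day 22. The fit on 2 groups alone gave 0 for LN523 against LN521 at day 22 and 1 and 7 for LN523 against LN323 at days 22 and 32, and the fit on the 9 libraries of a matrix gave 6 and 3 for day 32 against day 22 on LN323 and LN521. The cause of these changes was not tested.

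Without the replicate block 0 members were called for LN523 and for LN323 against LN521 at day 22, against 5 and 4 with it, and 5 instead of 4 for day 22 against day 2 on LN521; removing the block changed no other count.

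Leaving out single libraries gave 0 to 1 members for LN523 against LN323 at day 2, 0 to 2 for LN323 against LN521 at day 2, 0 to 8 for LN523 and for LN323 against LN521 at day 22, 0 to 5 for LN523 against LN323 at day 22, 0 to 4 for LN323 against LN521 at day 32, 3 to 7 and 0 to 1 for day 32 against day 22 on LN523 and LN323, 1 to 5 and 0 to 6 for day 22 against day 2 and day 32 against day 22 on LN521 and 0 to 3 for the difference in the PRPH rise. At day 22 the log2 fold change over single left-out libraries ran from -2.94 to 0.32 for STMN2 and from -3.26 to 0.057 for DCX on LN523 against LN521, and from -2.99 to 0.46 for DCX on LN323 against LN521, and for day 22 against day 2 on LN521 from -0.21 to 2.76 for CNTN2 and from -0.55 to 2.79 for STMN2. Each turned sign without LN521 replicate 1 of day 22; with that replicate left out at both days, a setting chosen after seeing the data, CNTN2 was -0.34, STMN2 -0.63 and day 32 against day 22 on LN521 gave 2 members. The other 4 differences between matrices were not refitted without single libraries, and no filter left the time fits as they were, since all 44852 genes had a summed count over 1. Counts that use the LN523 or LN521 libraries of day 32 include PRPH and CNTN2, which those libraries served to choose, and support nothing for these members. Day 2 counts of 0 to 22 limit PRPH.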

Other observations

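NEFL and NEFM, which face each other on chromosome 8, had a within-group correlation of 0.99 over the 18 libraries of days 22 and 32, the highest of the 45 pairs of members. The points share lanes and the LN521 replicate 1 library.

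REST was lower in the LN521 replicate 1 library of day 32 (94.8 CPM) than in the other 8 libraries of that day (114 to 148 CPM), and at day 22 it was within their range (128 against 112 to 154 CPM). VIM was lowest in the same day 32 library (599 CPM against 1147 to 1917 CPM). CHAT, from the motor neuron marker list, was at 2.27 CPM in LN521 replicate 1 at day 22 and at 0.0476 to 0.543 CPM in the other 8 libraries. At day 32 it was within their range (0.656 against 0.0559 to 1.79 CPM).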
